A study of Homo sapiens with 9 samples.

Results

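The genes described here are 10 transporters and carriers linked to the movement of platinum drugs and other anticancer drugs across membranes. They were chosen by gene name from the deposited table, in which each of the 10 names occurs once among 58735 genes, and all 10 passed the filter on low counts that left 15232 genes for testing. All measurements come from HEYA8 cells, a human line of ovarian cancer with the labels high-grade serous and WT (wild type). The cells received compound 32, sunitinib or the solvent DMSO for 24 h, in 3 libraries per treatment that all carry the same day in the labels. Sunitinib is an inhibitor of several receptor tyrosine kinases. Neither the doses of the compounds nor the structure of compound 32 are stated in the labels, and no sample received a platinum drug, although the series asks about synergy between sunitinib and cisplatin.

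Cells take up copper through the membrane channel CTR1, pass it to chaperones such as ATOX1 and export it through the copper pumps ATP7A and ATP7B. Cisplatin and related drugs can bind proteins of this route, which is why its genes are studied in platinum resistance. A second group of proteins, the ATP-binding cassette (ABC) pumps, moves drugs and their glutathione conjugates out of the cell. Sunitinib itself is known to be carried by the pumps encoded by ABCB1 and ABCG2.

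Sunitinib moved 6 of the 10 genes. The copper channel gene SLC31A1, the copper pump gene ATP7B and the conjugate pump gene ABCC3 rose, while the pump genes ABCC1, ABCG2 and ABCB1 fell. The changes ran from 2.32-fold higher for ABCC3 to 0.414 of the DMSO level for ABCG2. None of the 10 was called under compound 32, and the same 6 genes differed between compound 32 and sunitinib. A gene was called at an adjusted p under 0.05 in edgeR's quasi-likelihood test on all 9 libraries, with Benjamini-Hochberg adjustment over all genes tested. The sunitinib call of ABCC1 was lost in 10 of 18 alternative settings, and the other sunitinib calls were kept in all 18.

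These counts stand beside a wide response of the transcriptome. Of all genes tested, 40.2% were called under sunitinib (20.3% higher and 19.9% lower), so a call for a given transporter gene is not particular to it. The 3 sunitinib values lay wholly above DMSO for 3 of the 10 genes and wholly below for 4, where 25.8% and 25.1% of all genes did so. With upper-quartile scaling the balance of the whole table changed to 3952 genes higher and 2316 lower, against 3090 and 3036. Under compound 32, 22.3% of genes were called (12% higher and 10.3% lower), and 0 of the 10 transporter genes. Compound 32 and DMSO values did not overlap for 2 of the 10 genes and for 49.1% of all genes. At an unadjusted p under 0.05 in edgeR the number for compound 32 was also 0, and DESeq2 and limma voom called 0 as well. All these fits used the same 9 libraries, so they are not independent of each other. Between compound 32 and sunitinib 49.2% of genes were called (24.1% higher and 25.2% lower with compound 32), and 3 transporter genes in each direction. In the same 6 the values did not overlap, as in 27.8% of all genes for the higher and 29% for the lower direction. The median log2 fold change of the 10 genes was 0.40 under sunitinib and 0.05 under compound 32, against 0.022 and 0 over all genes tested. Without sunitinib replicate 3, described next, the sunitinib median was 0.08, against 0.014 over all genes.

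Library totals lay between 15498101 and 18006171 counts. Sunitinib replicate 3 stood apart from its group, since its counts gave a chi-square of 46.4 and 44.7 per degree of freedom against replicates 1 and 2, where no other pair of replicates exceeded 3.17. Ribosomal protein genes took 6.96% of its reads and mitochondrial genes 5.36%, while the other 8 libraries reached at most 4.52% and 3.92%. Values without it are therefore given beside the sunitinib results. Without this library 7 of the 10 genes were called under sunitinib and 1 under compound 32, beside 51.4% and 42% of all genes. The 7 were 4 higher and 3 lower (25.1% and 26.3% of all genes), and the 1 was higher (21.6%). Between the compounds 3 genes were then higher and 4 lower with compound 32, where 58.7% of all genes were called (29.7% higher and 29% lower). Among 14 markers of ovarian carcinoma 7 reached 1 CPM (counts relative to the library total, scaled by TMM factors) in every library, with PAX8 at 114 to 136 CPM and KRT8 at 627 to 905 CPM. The antigen gene MUC16, the cadherin gene CDH1 and the folate receptor gene FOLR1 were at most 0.325, 0.130 and 0.130 CPM. The 6 immune markers summed to at most 1.17 CPM in any library. The 6 endothelial markers summed to 6.93 to 7.95 CPM with compound 32, 15 to 18.4 CPM with sunitinib and 8.76 to 11.4 CPM with DMSO, most of it CDH5. The 7 fibroblast markers summed to at most 4.78 CPM. The part of these markers in the transporter results was not tested.

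Per length, the 10 genes covered a wide range in DMSO, where the conjugate pump gene ABCC1 (20.0 ± 0.611 CPM per kilobase, SD, n = 3) and SLC31A1 (15.8 ± 0.702) led. ATOX1 followed at 6.38 ± 0.335. ABCB1 (1.74 ± 0.234), ATP7B (1.04 ± 0.0760) and ATP7A (0.849 ± 0.0713) formed the middle. Lowest were ABCG2 (0.573 ± 0.0622), SLC31A2 (0.434 ± 0.0605), ABCC2 (0.245 ± 0.0588) and ABCC3 (0.239 ± 0.0400). In this order the 3 DMSO values overlapped between ABCG2 and SLC31A2 and between ABCC2 and ABCC3, and not between the other neighbours. ABCC1 alone made up 87.4 to 90.1% of the summed per-length level of the 5 ABC genes with compound 32, 83.6 to 90.7% with sunitinib and 86.3 to 89.1% with DMSO. That sum was 22.6 to 24.0, 13.7 to 20.7 and 22.5 to 23.2 CPM per kilobase in the same groups.

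**Figure D1:**
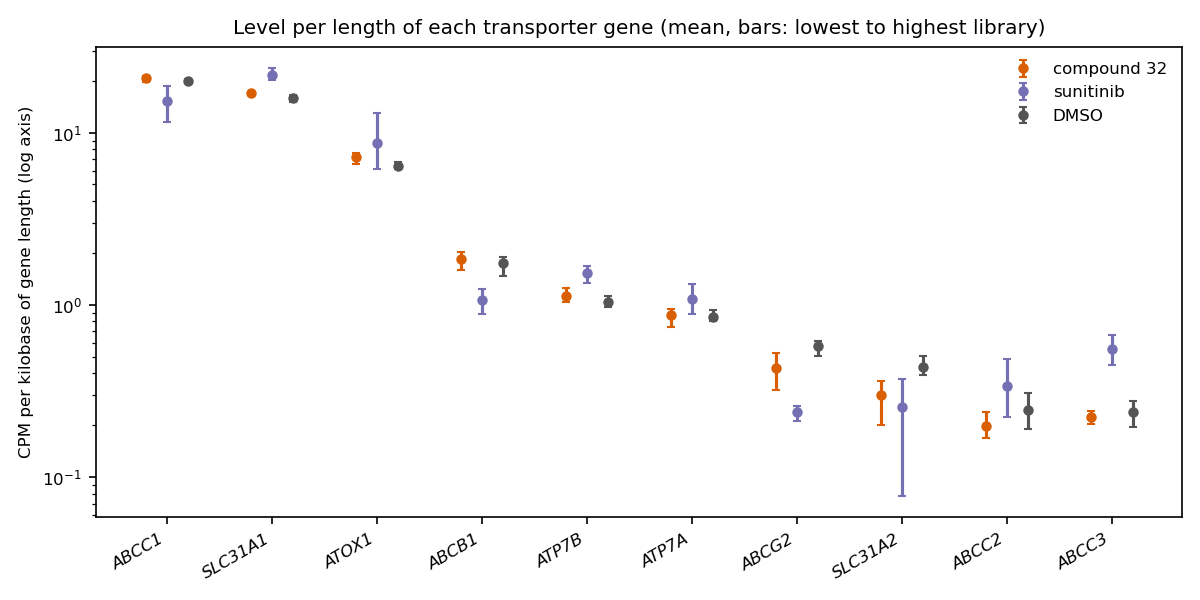
Mean level per length of each gene (CPM per kilobase of gene length, log axis) in compound 32, sunitinib and DMSO libraries, with bars from the lowest to the highest of 3 libraries. ABCC1, SLC31A1 and ATOX1 lie far above the other 7 genes in each treatment, and the sunitinib points leave the other groups upward for SLC31A1, ATP7B and ABCC3 and downward for ABCC1, ABCB1 and ABCG2.

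The promoters of 4 of the 6 genes called under sunitinib are shown, of which SLC31A1 and ATP7B rose while ABCG2 and ABCB1 fell. ABCC1 and ABCC3 are named only. The sequences are RefSeq windows on GRCh38.p14 from 250 bases before to 50 bases after an annotated start, written 5′ to 3′ on the gene's strand. Where a gene has several windows, the one with the most GENCODE 29 transcript starts was taken, and on a tie the first in the RefSeq table. ATP7B had a tie of windows with 1 start each and ABCG2 of windows with 2 starts each. The other ATP7B window of that tie (chr13:52011959-52012258) also held GCGTG and TGCGCNC, and the other ABCG2 window (chr4:88158860-88159159) also held GCGTG and ACGTG. Which start these cells used was not measured. Capitals mark matches on either strand to ACGTG or GCGTG, the cores of hypoxia response elements, to TGCACNC or TGCGCNC, which are metal response elements, to TGATGNAA (amino acid response) and to TGACNNNGC (antioxidant response). The windows are chr9:113221294-113221593 on the plus strand for SLC31A1, chr13:52012083-52012382 on the minus strand for ATP7B, chr4:88158810-88159109 on the minus strand for ABCG2 and chr7:87713246-87713545 on the minus strand for ABCB1.
SLC31A1: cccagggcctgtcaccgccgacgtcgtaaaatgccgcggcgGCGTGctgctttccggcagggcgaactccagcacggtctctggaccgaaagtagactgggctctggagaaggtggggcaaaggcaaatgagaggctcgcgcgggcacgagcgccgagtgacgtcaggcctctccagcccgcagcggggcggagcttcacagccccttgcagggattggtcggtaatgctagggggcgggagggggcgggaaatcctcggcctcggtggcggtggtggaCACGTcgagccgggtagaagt
ATP7B: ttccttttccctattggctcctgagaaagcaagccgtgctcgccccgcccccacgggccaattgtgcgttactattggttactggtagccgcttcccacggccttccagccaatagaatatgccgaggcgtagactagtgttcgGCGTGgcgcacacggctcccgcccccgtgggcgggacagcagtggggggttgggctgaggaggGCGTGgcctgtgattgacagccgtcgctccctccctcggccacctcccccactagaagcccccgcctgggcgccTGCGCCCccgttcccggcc
ABCG2: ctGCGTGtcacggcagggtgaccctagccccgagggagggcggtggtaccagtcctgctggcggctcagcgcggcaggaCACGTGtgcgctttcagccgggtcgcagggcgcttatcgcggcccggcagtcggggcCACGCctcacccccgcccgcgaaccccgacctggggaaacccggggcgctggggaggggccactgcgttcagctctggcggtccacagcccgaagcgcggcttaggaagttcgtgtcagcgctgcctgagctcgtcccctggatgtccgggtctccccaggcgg
ABCB1: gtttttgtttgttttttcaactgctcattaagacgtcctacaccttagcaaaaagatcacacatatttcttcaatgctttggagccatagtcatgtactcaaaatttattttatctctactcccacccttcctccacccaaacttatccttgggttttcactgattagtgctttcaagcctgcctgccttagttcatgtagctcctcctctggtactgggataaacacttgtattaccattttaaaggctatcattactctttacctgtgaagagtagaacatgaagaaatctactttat

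The SLC31A1 window held GCGTG at position -209 and ACGTG at position 30 on the opposite strand, counted from the start as position 1. The ATP7B window held GCGTG at -106 and -43 and the metal response letters TGCGCNC at 32. The ABCG2 window held GCGTG at -248 and, on the opposite strand, at -114, and ACGTG on both strands at -171 and -170, where the matches overlap as CACGTG. None of the 6 motifs was found in the ABCB1 window shown, and TGCACNC, TGATGNAA and TGACNNNGC were found in none of the 4 shown. Windows not shown differed. The other ABCB1 window (chr7:87600835-87601134) held GCGTG at -53. Of the ABCG2 windows outside the tie, chr4:88231577-88231876 held TGATGNAA, chr4:88159241-88159540 TGCGCNC and TGACNNNGC, and chr4:88158590-88158889 GCGTG and TGCGCNC. The ATP7B window outside the tie (chr13:51981455-51981754) held ACGTG. Among all 35116 RefSeq windows of this length, 21.4% held ACGTG, 36.5% GCGTG, 12.1% TGCACNC, 20.0% TGCGCNC, 3.62% TGATGNAA and 13.3% TGACNNNGC. A match here describes letters only.

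SLC31A1 encodes CTR1, the main copper channel of the plasma membrane, through which cisplatin has also been reported to enter cells. The gene (ENSG00000136868) lies on chromosome 9 from 113221562 to 113264492 (GRCh38). Its level was 85.3, 87.4 and 88.5 CPM in the 3 compound 32 libraries, 109, 103 and 121 CPM in the sunitinib libraries and 77.2, 81.5 and 84.3 CPM in the DMSO libraries. Every sunitinib library lay above all 6 others. The rise under sunitinib was 0.45 ± 0.07 on the log2 scale (SE, 95% interval 0.30 to 0.61, edgeR adjusted p = 0.000475), and 0.39 without sunitinib replicate 3. Compound 32 gave 0.10 ± 0.07 against DMSO (95% interval -0.05 to 0.26, edgeR adjusted p = 0.349). Without sunitinib replicate 3 that value was 0.11 ± 0.05 (95% interval 0.01 to 0.20), still not called (edgeR adjusted p = 0.0765). All compound 32 values were above those of DMSO, as was true for 24.7% of all genes tested. Compound 32 was below sunitinib by a log2 difference of -0.35 ± 0.07 (95% interval -0.51 to -0.19, edgeR adjusted p = 0.00182), and -0.28 without sunitinib replicate 3.

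SLC31A2 encodes CTR2, a relative of CTR1 found mainly in internal membranes. The gene (ENSG00000136867) lies near SLC31A1 on chromosome 9, from 113150942 to 113164137. It was the least counted of the 10 genes, with 8 to 14 reads per library with compound 32, 3 to 15 with sunitinib and 15 to 21 with DMSO. The levels were 0.905, 0.501 and 0.837 CPM with compound 32, 0.794, 0.930 and 0.195 CPM with sunitinib and 0.973, 1.26 and 1.03 CPM with DMSO, so all DMSO values were above the rest. The values were not called, at -0.54 ± 0.43 for compound 32 (95% interval -1.48 to 0.41, edgeR adjusted p = 0.421) and -0.74 ± 0.44 for sunitinib (95% interval -1.70 to 0.22, edgeR adjusted p = 0.201). Without sunitinib replicate 3 the sunitinib value was -0.34 ± 0.42. Compound 32 against sunitinib gave 0.20 (95% interval -0.81 to 1.21) and -0.19 without that library. Exons of SLC31A2 share 1579 bases with FKBP15 on the opposite strand, which had 1247 to 1683 reads per library. The sources used here do not say whether reads were counted by strand, so the reads of such partners cannot be told apart.

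ATOX1 encodes the cytosolic chaperone that hands copper to both copper pumps. It lies on chromosome 5 from 151742316 to 151772532 (ENSG00000177556). Its level was 38.7, 34.5 and 40.0 CPM with compound 32, 32.3, 36.5 and 68.4 CPM with sunitinib and 32.4, 35.4 and 32.4 CPM with DMSO. The highest value is that of sunitinib replicate 3, and the other 2 sunitinib values lay around those of DMSO. The sunitinib value was 0.45 ± 0.22 (edgeR adjusted p = 0.135) with all libraries, 0.04 ± 0.08 without replicate 3 (edgeR adjusted p = 0.713) and 0.65 without replicate 1 (edgeR adjusted p = 0.0251). Compound 32 gave 0.18 ± 0.23 against DMSO (95% interval -0.32 to 0.67, edgeR adjusted p = 0.640). Without sunitinib replicate 3, which enters that comparison through the shared spread, the value was 0.18 ± 0.07 and was called (edgeR adjusted p = 0.0366). Compound 32 against sunitinib was -0.27 ± 0.22 (95% interval -0.76 to 0.22) and 0.14 without that library. ATOX1 shares 130 exonic bases with G3BP1 on the opposite strand, a stress granule gene at -0.28 ± 0.06 with compound 32 and -0.62 ± 0.06 with sunitinib.

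ATP7B, the copper pump defective in Wilson disease, rose under sunitinib. It lies on chromosome 13 from 51930436 to 52012125 (ENSG00000123191). It was at 12.1, 10.6 and 10.1 CPM with compound 32, 16.1, 15.4 and 12.9 CPM with sunitinib and 9.41, 10.9 and 9.91 CPM with DMSO. The sunitinib libraries all lay above the other 6, and replicate 3 was the lowest of them. The rise was 0.56 ± 0.12 (95% interval 0.29 to 0.82, edgeR adjusted p = 0.0034), or 1.47-fold, and 0.65 without sunitinib replicate 3. Compound 32 gave 0.12 ± 0.12 against DMSO (95% interval -0.15 to 0.39, edgeR adjusted p = 0.554). It was below sunitinib by -0.44 ± 0.12 (95% interval -0.70 to -0.18, edgeR adjusted p = 0.00955), and by -0.53 without sunitinib replicate 3.

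ATP7A, the pump defective in Menkes disease, lies on chromosome X from 77910656 to 78050395 (ENSG00000165240). It was at 10.1, 10.3 and 8.13 CPM with compound 32, 11.3, 14.4 and 9.69 CPM with sunitinib and 8.89, 8.75 and 10.2 CPM with DMSO. Sunitinib replicates 1 and 2 were above every DMSO value and replicate 3 was among them. The sunitinib value of 0.35 ± 0.16 was not called (edgeR adjusted p = 0.0955), and without replicate 3 it was called at 0.46 ± 0.13 (edgeR adjusted p = 0.00279). With upper-quartile scaling it was called too, at 0.43 (edgeR adjusted p = 0.0452). Compound 32 gave 0.04 ± 0.16 against DMSO (95% interval -0.31 to 0.38). Against sunitinib it gave -0.31 ± 0.15 (edgeR adjusted p = 0.118), and -0.42 ± 0.13 without sunitinib replicate 3 (edgeR adjusted p = 0.00495). ATP7A shares 97 exonic bases on the same strand with the glycolytic gene PGK1, which was at 1396 to 1446 CPM with compound 32, 526 to 631 CPM with sunitinib and 582 to 601 CPM with DMSO.

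**Figure D2:**
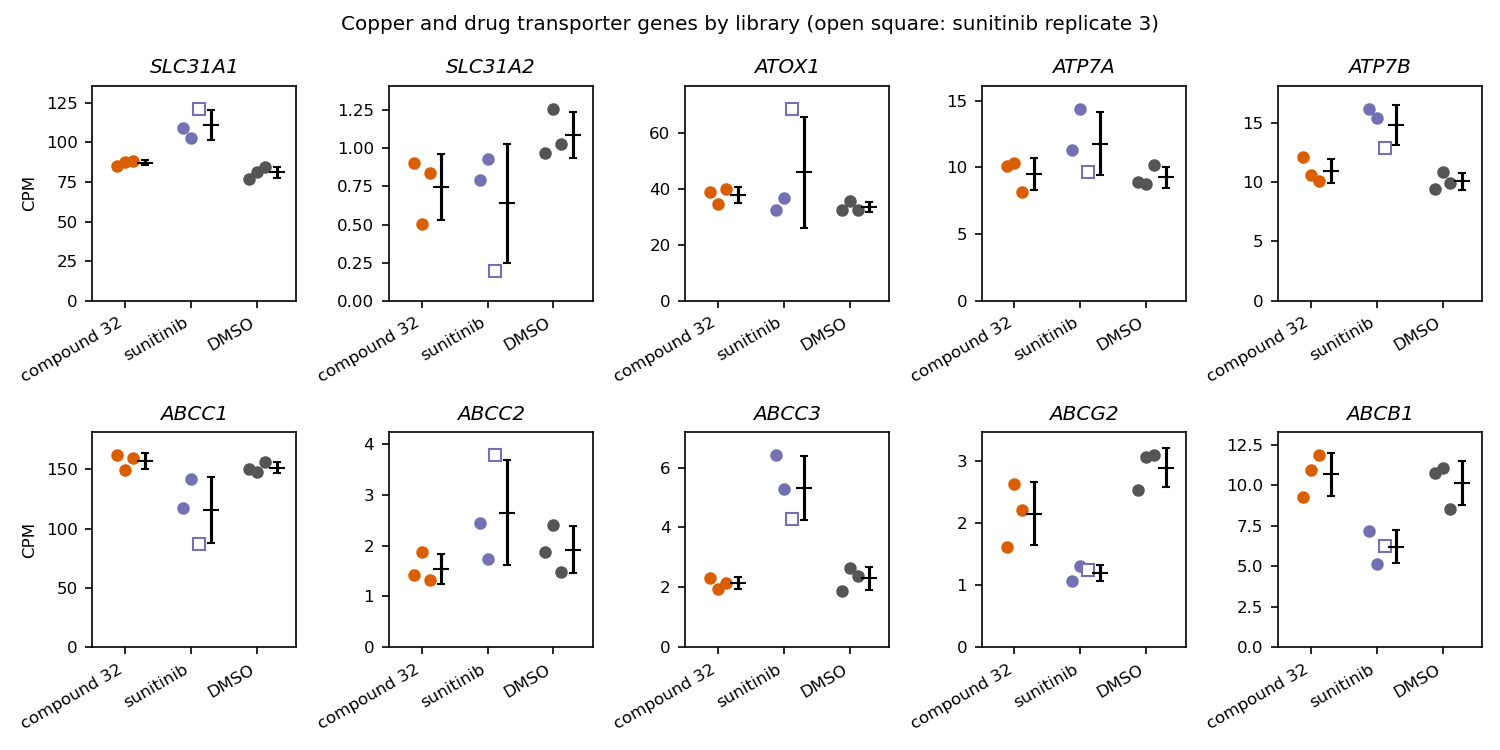
CPM of each gene in every library, with compound 32, sunitinib and DMSO from left to right. Points are libraries, the open square is sunitinib replicate 3, and the bar beside each group is the mean and SD of 3 libraries. The open square lies far above its group for ATOX1 (68.4 CPM) and far below it for ABCC1 (86.9 CPM), and within the sunitinib group for ABCG2 and ABCB1.

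ABCC3 encodes the pump MRP3, which exports glucuronide and glutathione conjugates. It had the largest rise of the 10 genes under sunitinib. Its locus is chromosome 17 from 50634777 to 50692252 (ENSG00000108846). It was at 2.33, 1.94 and 2.15 CPM with compound 32, 6.40, 5.27 and 4.29 CPM with sunitinib and 1.88, 2.64 and 2.38 CPM with DMSO. The lowest sunitinib library was above the highest of the other 6, on 66 to 121 reads per sunitinib library. The rise was 1.21 ± 0.20 (95% interval 0.77 to 1.65, edgeR adjusted p = 0.000636), and 1.34 ± 0.22 without sunitinib replicate 3. Compound 32 gave -0.11 ± 0.22 against DMSO (95% interval -0.60 to 0.38, edgeR adjusted p = 0.783). Compound 32 was below sunitinib by -1.32 ± 0.20 (95% interval -1.76 to -0.87, edgeR adjusted p = 0.000254), the widest gap between the compounds among the 10 genes. It was -1.45 without sunitinib replicate 3.

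ABCC1 encodes MRP1, the conjugate pump that was by far the most expressed ABC gene of the set. Its locus is chromosome 16 from 15949577 to 16143074 (ENSG00000103222). It was at 162, 149.5 and 159.9 CPM with compound 32, 118, 142 and 86.9 CPM with sunitinib and 149.9, 147 and 156 CPM with DMSO. All sunitinib values were below the other 6, by little in replicate 2 and by most in replicate 3. The fall was -0.39 ± 0.13 (95% interval -0.68 to -0.09, edgeR adjusted p = 0.0384), and -0.22 ± 0.06 without sunitinib replicate 3 (edgeR adjusted p = 0.000947). The call was lost in 10 of 18 alternatives. These were upper-quartile scaling (-0.30, edgeR adjusted p = 0.0871), library totals as scaling (-0.32, edgeR adjusted p = 0.101) and the 6 libraries alone (-0.39, edgeR adjusted p = 0.0923). It was also lost when DMSO replicate 1, 2 or 3, sunitinib replicate 1 or compound 32 replicate 1, 2 or 3 was left out (-0.41 to -0.37, edgeR adjusted p = 0.0513 to 0.100). Compound 32 gave 0.05 ± 0.13 against DMSO (95% interval -0.24 to 0.35). Compound 32 was above sunitinib by 0.44 ± 0.13 (edgeR adjusted p = 0.0174), by 0.28 ± 0.06 without sunitinib replicate 3 and, no longer called, by 0.42 and 0.43 without compound 32 replicate 1 and 3 (edgeR adjusted p = 0.0545 and 0.0527).

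ABCC2 encodes MRP2, a conjugate pump of apical membranes that is linked to cisplatin export. The gene spans chromosome 10 from 99782640 to 99852594 (ENSG00000023839). It was scarce, at 1.42, 1.88 and 1.31 CPM with compound 32, 2.43, 1.74 and 3.77 CPM with sunitinib and 1.88, 2.40 and 1.48 CPM with DMSO. The groups overlapped in every comparison. The sunitinib value was 0.45 ± 0.30 (edgeR adjusted p = 0.254) and 0.12 ± 0.30 without replicate 3, and the compound 32 value was -0.32 ± 0.32 (edgeR adjusted p = 0.529). Compound 32 against sunitinib gave -0.77 ± 0.31 (95% interval -1.45 to -0.10, edgeR adjusted p = 0.0567). That difference was -0.45 without sunitinib replicate 3, and was called at -1 without sunitinib replicate 2 (edgeR adjusted p = 0.0181).

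ABCG2, the breast cancer resistance protein gene, had the largest fall under sunitinib. The gene spans chromosome 4 from 88090264 to 88231322 (ENSG00000118777). It was at 1.62, 2.63 and 2.21 CPM with compound 32, 1.06, 1.30 and 1.24 CPM with sunitinib and 2.53, 3.06 and 3.09 CPM with DMSO. All sunitinib values were below the other 6, on 19 to 21 reads per sunitinib library and 39 to 51 per DMSO library. The change was -1.27 ± 0.24 (95% interval -1.79 to -0.75, edgeR adjusted p = 0.00139), and -1.30 ± 0.30 without sunitinib replicate 3. With compound 32 it was -0.42 ± 0.22 (95% interval -0.91 to 0.06, edgeR adjusted p = 0.201), and 2 of the 3 values lay below all DMSO values. Compound 32 was above sunitinib by 0.85 ± 0.25 (95% interval 0.31 to 1.39, edgeR adjusted p = 0.0134), and by 0.69 without compound 32 replicate 2, where the call was lost (edgeR adjusted p = 0.0621). The difference was 0.88 without sunitinib replicate 3.

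ABCB1 encodes P-glycoprotein, the pump behind classical multidrug resistance to taxanes and anthracyclines, which are not platinum drugs. It lies on chromosome 7 from 87503633 to 87713323 (ENSG00000085563). It was at 9.24, 11 and 11.8 CPM with compound 32, 7.20, 5.15 and 6.24 CPM with sunitinib and 10.8, 11 and 8.55 CPM with DMSO. The highest sunitinib value was below the lowest of the other 6. The change was -0.70 ± 0.16 under sunitinib (95% interval -1.05 to -0.35, edgeR adjusted p = 0.00448), and also -0.70 without replicate 3. Compound 32 gave 0.08 ± 0.15 against DMSO (95% interval -0.26 to 0.41). It was above sunitinib by 0.78 ± 0.16 (95% interval 0.43 to 1.13, edgeR adjusted p = 0.00166), and also by 0.78 without sunitinib replicate 3.

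**Figure D3:**
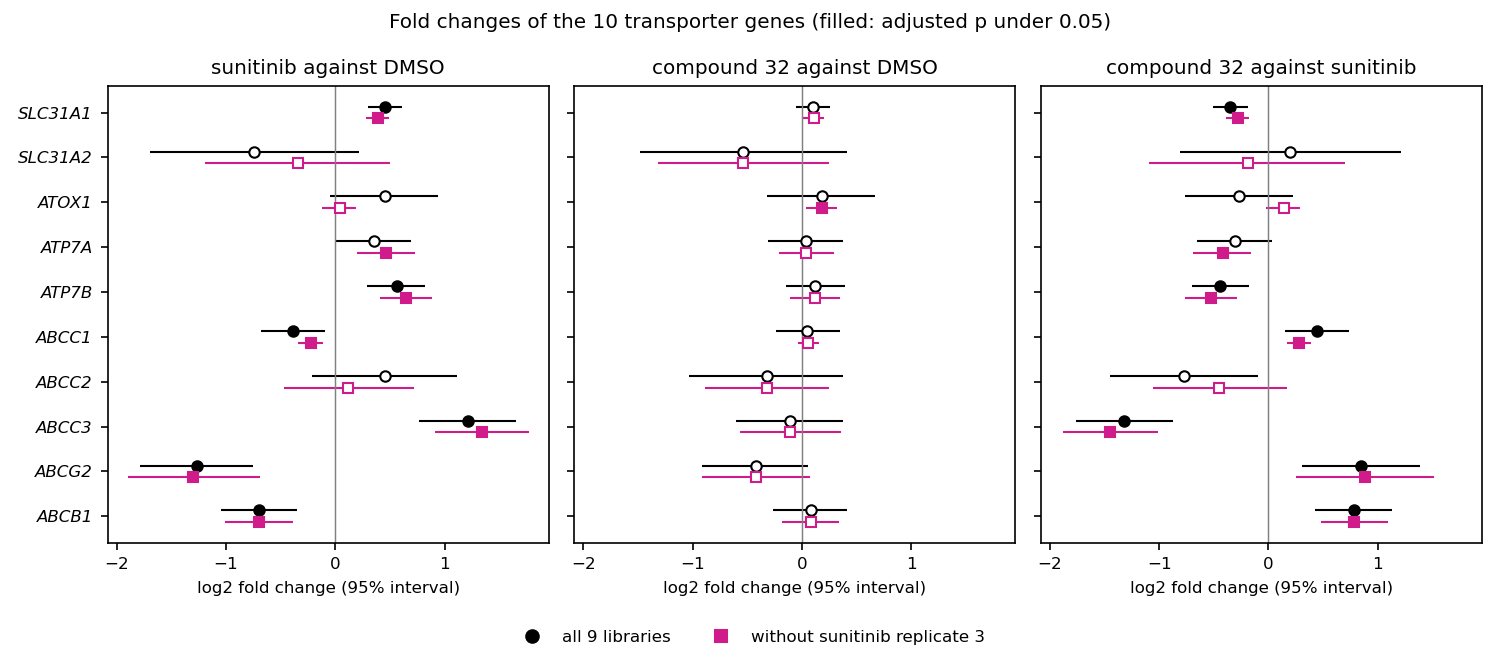
Log2 fold change with its 95% interval for each gene in the 3 comparisons, with all 9 libraries (black circles) and without sunitinib replicate 3 (magenta squares); filled symbols are called at an adjusted p under 0.05. ABCC3 (1.21) and ABCG2 (-1.27) are the extremes under sunitinib, and with all libraries no symbol is filled for compound 32 against DMSO.

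Only 1 pair of compounds was compared, and both comparisons with DMSO share the same 3 DMSO libraries. Between compound 32 and sunitinib, ABCC1, ABCG2 and ABCB1 were higher with compound 32 and SLC31A1, ATP7B and ABCC3 were lower. For each of these genes the value with compound 32 lay closer to DMSO than to sunitinib on the log2 scale. For SLC31A2, ATOX1, ATP7A and ABCC2 the compounds were not shown to differ with all 9 libraries, where the 95% interval of the difference ran from -0.65 to 0.03 for ATP7A and from -0.81 to 1.21 for SLC31A2. Since the doses are not given, these are differences between the treatments as applied.

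The other genes listed for copper handling include metallothioneins, chaperones and copper enzymes. Of 30 genes listed, 23 were tested, of which 5 rose and 2 fell under sunitinib and 1 rose and 4 fell under compound 32. The shares called were 30.4% under sunitinib, beside 40.2% of all genes, and 21.7% under compound 32, beside 22.3%. Their medians were 0.06 and -0.14. With upper-quartile scaling 9 rose under sunitinib, and 8 with library totals as scaling. Without sunitinib replicate 3 the numbers were 6 and 5 under sunitinib and 4 and 8 under compound 32. In that fit 51.4% and 42% of all genes were called. The 6 libraries alone also gave 4 and 8 for compound 32, and leaving out DMSO replicate 2 gave 2 that rose. Metallothioneins, small proteins that bind copper, zinc and platinum, were among those that rose under sunitinib. MT2A was at 549.5, 537 and 556 CPM with compound 32, 775, 868 and 1577 CPM with sunitinib and 609, 661 and 599 CPM with DMSO. All sunitinib values of MT2A were above the other 6, with replicate 3 far above the rest. MT2A changed by 0.78 ± 0.21 under sunitinib (edgeR adjusted p = 0.0118) and by 0.40 without that replicate (edgeR adjusted p = 7.69e-11). MT1E changed by 1.17 ± 0.30 and by 0.60 without it, and MT1X by 1.01 ± 0.22 and 0.74. The metallothionein genes are near-identical copies, so how reads were split among them is uncertain. CCS, the copper chaperone of superoxide dismutase, rose by 0.53 ± 0.10 under sunitinib and by 0.52 without replicate 3. LOX, a copper-dependent crosslinker of collagen, was at 146.6 ± 4.41 CPM with compound 32, 43.3 ± 2.61 CPM with sunitinib and 56.2 ± 4.18 CPM with DMSO (SD, n = 3). It rose by 1.38 ± 0.07 with compound 32 (edgeR adjusted p = 3.87e-07) and fell under sunitinib (-0.38 ± 0.08, edgeR adjusted p = 0.00225; -0.37 without replicate 3). STEAP1, from a family with members that can reduce copper before uptake, fell with compound 32 (-0.82 ± 0.16, edgeR adjusted p = 0.00354).

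Volume-regulated anion channels, built from LRRC8 subunits, are another reported entry route for cisplatin. In the list of other platinum entry and exit genes 11 of 14 were tested, of which 3 rose and 5 fell under sunitinib and 3 rose and 2 fell under compound 32, with medians of -0.13 and 0. The shares called were 72.7% under sunitinib, beside 40.2% of all genes, and 45.5% under compound 32, beside 22.3%. Under sunitinib 3 fell with upper-quartile scaling, 1 rose without the filter on low counts, and 1 rose and 3 fell with the 6 libraries alone. Leaving out a library took the sunitinib counts down to as few as 0 higher (without DMSO replicate 2 or 3; 1 without sunitinib replicate 1) and 2 lower (without DMSO replicate 1 or 2; 3 without DMSO replicate 3 or sunitinib replicate 2). The number lower with compound 32 was 1 without DMSO replicate 1 or compound 32 replicate 2 or 3. LRRC8A, the obligatory subunit, was at 193, 196 and 194 CPM with compound 32, 129, 136 and 100.5 CPM with sunitinib and 133, 134 and 134 CPM with DMSO. It rose with compound 32 (0.54 ± 0.09, edgeR adjusted p = 0.00195) in all 3 libraries, and its sunitinib value was -0.13 ± 0.09 (edgeR adjusted p = 0.286), or -0.01 without sunitinib replicate 3. LRRC8D, the subunit linked to cisplatin uptake, was at 40.8 ± 1.07 CPM with compound 32, 56.9 ± 5.15 CPM with sunitinib and 47.5 ± 2.26 CPM with DMSO (SD, n = 3). It rose under sunitinib (0.26 ± 0.08, edgeR adjusted p = 0.0211), a call lost without DMSO replicate 2 or 3 (edgeR adjusted p = 0.0871 and 0.0851). Leaving out sunitinib replicate 3 gave 0.19 for LRRC8D. LRRC8C fell under sunitinib (-0.83 ± 0.08, edgeR adjusted p = 1.52e-05) and LRRC8B likewise (-0.65 ± 0.10), with -0.77 and -0.56 without replicate 3. With compound 32 LRRC8C rose (0.27 ± 0.08, edgeR adjusted p = 0.0294), a call kept in 3 of 9 fits with a library left out. MVP, the major vault protein, fell with compound 32 (-0.39 ± 0.07, edgeR adjusted p = 0.00204). Under sunitinib MVP rose (0.21 ± 0.07, edgeR adjusted p = 0.0303, and 0.25 without replicate 3), a call kept in 2 of 9 fits with a library left out. The organic anion transporter gene SLCO1B3 rose with compound 32 (0.95 ± 0.13, edgeR adjusted p = 4.63e-04). Under sunitinib SLCO1B3 fell (-0.43 ± 0.14, edgeR adjusted p = 0.0275, and -0.64 without replicate 3), a call kept in 5 of 9 fits with a library left out.

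In the rest of the ABC family 24 of 43 genes were tested, of which 5 rose and 10 fell under sunitinib and 7 rose and 6 fell under compound 32. The shares called were 62.5% under sunitinib, beside 40.2% of all genes, and 54.2% under compound 32, beside 22.3%. Their medians were 0.01 and -0.01. With upper-quartile scaling 8 rose under sunitinib. Without sunitinib replicate 3, 26 of the listed genes were tested, of which 8 rose and 10 fell under sunitinib. In that fit 25.1% of all genes rose and 26.3% fell. With compound 32, 4 were higher without DMSO replicate 2, and 2 or 3 were lower without DMSO replicate 2 or 3 or any compound 32 replicate. ABCA1, the cholesterol exporter, moved furthest among the list's genes of at least 5 CPM. It was at 127, 130.1 and 112 CPM with compound 32, 22.4, 28.8 and 17.1 CPM with sunitinib and 58.5, 64.6 and 73.1 CPM with DMSO. The 3 groups of ABCA1 values did not overlap. ABCA1 rose with compound 32 (0.91 ± 0.14, edgeR adjusted p = 0.00116), fell under sunitinib (-1.52 ± 0.15, edgeR adjusted p = 1.99e-05) and differed between them by 2.43 ± 0.16. The sunitinib value of ABCA1 was -1.36 and the difference 2.27 without sunitinib replicate 3. ABCB10, a mitochondrial pump linked to haem synthesis, had the same directions, at 0.46 ± 0.10 with compound 32 and -0.59 ± 0.10 with sunitinib (-0.49 without replicate 3). The lipid pump gene ABCA3 rose under sunitinib (0.99 ± 0.15, edgeR adjusted p = 4.35e-04; 1.18 without replicate 3). TAP1, a subunit of the peptide transporter of antigen presentation, rose in both treatments. The rise was 0.44 ± 0.08 with compound 32 (edgeR adjusted p = 0.00352) and 0.48 ± 0.08 with sunitinib (0.51 without replicate 3). The gene of the other subunit, TAP2, fell under sunitinib (-0.36 ± 0.08, edgeR adjusted p = 0.0038, and -0.37 without replicate 3). With compound 32 TAP2 was not called (0.12 ± 0.08, edgeR adjusted p = 0.322). ABCE1, a ribosome recycling factor with no transport function, fell in both treatments, by 0.33 ± 0.07 with compound 32 and by 0.67 ± 0.07 with sunitinib on the log2 scale, and by 0.73 without replicate 3.

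**Figure D4:**
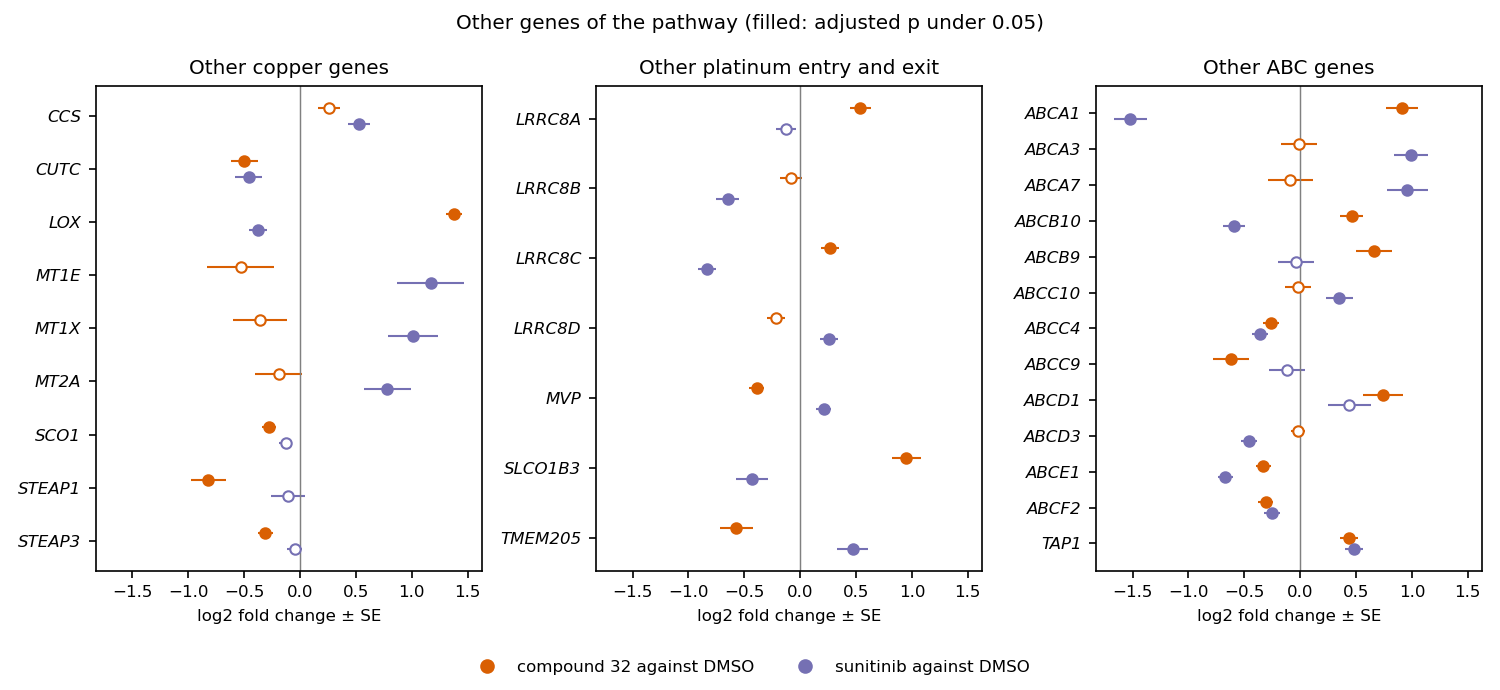
Log2 fold change ± SE of the other genes named by rule in 3 lists (copper handling, platinum entry and exit, ABC family), for compound 32 (orange) and sunitinib (violet) against DMSO; filled symbols are called at an adjusted p under 0.05. ABCA1 (0.91 and -1.52), ABCB10 (0.46 and -0.59) and LOX (1.38 and -0.38) are among the genes with filled symbols on opposite sides of 0.

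The pattern of ABCG2, the gene with the largest change under sunitinib, was compared with that of 10165 protein-coding genes of at least 5 CPM. By Pearson's r of log2 CPM over the 9 libraries, the most alike were UBE2G1, a ubiquitin-conjugating enzyme (r = 0.959), CS, citrate synthase (r = 0.957), and KAT7, a histone acetyltransferase (r = 0.957). The 9 libraries share 3 treatments, and the median r over all these genes was 0.15. Without sunitinib replicate 3 the values were 0.957, 0.958 and 0.949. The sunitinib changes of UBE2G1, CS and KAT7 were smaller than that of ABCG2 (-1.27), at -0.46, -0.44 and -0.29 on the log2 scale.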

How the data were processed

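RNA was extracted with TRIzol and enriched for polyadenylated molecules with oligo(dT), per the labels' protocols. The authors deposited raw counts of reads per gene for 9 libraries. Per the submitters' processing notes, fastp, HISAT2 2.0.5, featureCounts, DESeq2 and edgeR were named with the builds hg38 and mm10, without roles. GENCODE 29 (GRCh38) holds all 58735 gene identifiers, with the names and coordinates of the table.

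The counts were filtered with filterByExpr, scaled by TMM factors (0.983 to 1.051) and tested on the whole table with edgeR 4.0.16 (R 4.3.3) by the quasi-likelihood test with a group-means model over the 9 libraries, so that the groups share one estimate of the spread. A log2 fold change is followed by its standard error. DESeq2 1.42.0 and limma 3.58.1 were alternatives. The test was checked on simulated counts in which no library stood apart, so that check does not cover an outlier such as sunitinib replicate 3.

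Samples of sunitinib and of DMSO are named biological replicates in the series text. Those of compound 32 are not, so their p-values may measure technical spread. CPM per kilobase uses the deposited gene length; alternative transcripts can make it too long for a gene. In these bulk RNA samples fewer cells of a type and less RNA per cell cannot be told apart. The genes, lists and tests were chosen with earlier results of these data known. Of each list, the up to 4 called genes with the largest rise and fall and at least 5 CPM were eligible to be named. TAP2 was named in addition, beside TAP1. For the member with the largest called change, 3 genes of like pattern were named.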

Additional observations from a re-analysis of the deposited data

How the results depend on the processing

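The calls of SLC31A1, ATP7B, ABCC3, ABCG2 and ABCB1 under sunitinib kept their direction and stayed called in all 18 alternatives, with ranges of 0.39 to 0.54, 0.49 to 0.65, 1.05 to 1.34, -1.37 to -1.19 and -0.83 to -0.59. Of the 10 genes, 3 or 4 were called higher and 2 or 3 lower under sunitinib. Over the same settings the whole table ranged from 2276 to 3952 genes higher and from 2316 to 4096 lower. Under compound 32, 1 of the 10 genes was called higher with only the 6 libraries compared, which is ATOX1 (0.17, edgeR adjusted p = 0.038). Of the 10, 0 to 1 were called higher when a library was left out, and the number called lower stayed at 0. For compound 32 against DMSO the whole table gave 3258 genes higher and 3114 lower with the 6 libraries alone, against 1830 and 1571, and 1168 to 3359 higher and 968 to 3189 lower when a library was left out. Leaving out sunitinib replicate 3, which enters that comparison through the shared spread, gave the highest of these counts, and the cause was not tested.

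Values near 0 changed sign for compound 32 against DMSO. ATP7A was at -0.01 without DMSO replicate 2 or compound 32 replicate 1 and at -0.03 without compound 32 replicate 2, ABCC3 at 0 without DMSO replicate 2, and ABCB1 at -0.03 without DMSO replicate 3 and -0.01 without compound 32 replicate 3. With each library left out in turn ATP7A ran from -0.03 to 0.14, ABCC3 from -0.24 to 0 and ABCB1 from -0.03 to 0.17. For compound 32 against sunitinib, without sunitinib replicate 3, SLC31A2 was at -0.19 and ATOX1 at 0.14, with ranges over all libraries left out of -0.19 to 0.53 and -0.48 to 0.14. ABCC1 was no longer called for compound 32 against sunitinib with library totals as scaling (0.37, edgeR adjusted p = 0.0534). ABCC2 was called there with upper-quartile factors (-0.86), library totals (-0.83) and no filter (-0.74). The cause of these changes was not tested.

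Same-numbered libraries correlated at -0.0769 to 0.0609 in their deviations from the group means, and differently numbered libraries at -0.0609 to 0.0882. These values do not settle whether the libraries were paired by design. With the replicate block the 10 genes had the same calls, and 2846 genes rose and 2912 fell under sunitinib, 1559 and 1319 under compound 32. The median log2 fold change of all genes under sunitinib was 0.105 with upper-quartile factors, against 0.022. Depth limits SLC31A2, ABCC2, ABCC3 and ABCG2, whose reads per library ran from 3 to 121.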

Other observations

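Genes of transcription factors and cofactors known to act on transporter genes formed another list. Of 16 listed, 14 were tested, of which 3 rose and 4 fell under sunitinib and 3 rose and 1 fell under compound 32. The shares called were 50% under sunitinib, beside 40.2% of all genes, and 28.6% under compound 32, beside 22.3%. With upper-quartile scaling or library totals as scaling 2 fell under sunitinib, and under compound 32 there were 2 that fell without the filter on low counts and 3 with the 6 libraries alone. Without DMSO replicate 1 the number that fell under sunitinib was 2. With compound 32, 1 rose when any DMSO or compound 32 replicate was left out, and 0 fell without DMSO replicate 2 or 3 or compound 32 replicate 2, 2 without sunitinib replicate 1 and 3 without sunitinib replicate 3. EPAS1, which encodes the hypoxia-inducible factor HIF-2 alpha, was at 65.9, 69.9 and 73.7 CPM with compound 32, 124, 128 and 102 CPM with sunitinib and 42.4, 42.6 and 40.1 CPM with DMSO. It rose with compound 32 (0.74 ± 0.09, edgeR adjusted p = 1.92e-04) and with sunitinib (1.5 ± 0.09, edgeR adjusted p = 4.1e-07; 1.59 without sunitinib replicate 3). HIF1A, which encodes HIF-1 alpha, fell with compound 32 (-0.23 ± 0.06, edgeR adjusted p = 0.0142) and with sunitinib (-0.26 ± 0.06, edgeR adjusted p = 0.00451; the same value without sunitinib replicate 3). The compound 32 call was lost without DMSO replicate 2 or 3 or compound 32 replicate 2 (edgeR adjusted p = 0.0557, 0.055 and 0.0733). KEAP1, the inhibitor of the antioxidant factor NRF2, fell under sunitinib (-0.35 ± 0.06, edgeR adjusted p = 0.00101), also by -0.35 without replicate 3.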
